A study of Mus musculus with 24 samples.

Results

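The genes described are 10 ligand, receptor and Smad genes of TGF-beta and myostatin signalling: the ligands Mstn, Tgfb1 and Tgfb2, the receptors Tgfbr1, Tgfbr2 and Acvr2b, and the signal carriers Smad2, Smad3, Smad4 and Smad7. They were chosen by name, with earlier results of these data known, so their counts beside the shares of all genes are descriptions. All 10 were found among the 55487 gene identifiers listed for each mouse. TGF-beta and myostatin are secreted ligands that bind a type II receptor, which then phosphorylates a type I receptor. The type I receptor phosphorylates Smad2 and Smad3, which join Smad4 and act on target genes in the nucleus, while Smad7 inhibits the pathway at the receptor. In skeletal muscle, myostatin limits the size of the fibers, and TGF-beta promotes the deposition of collagen.

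RNA was sequenced from the left tibialis anterior (TA) muscle of 24 wild-type (WT) male C57BL/6J mice aged 5 to 7 weeks, in 4 groups of 6. Mice of the sedentary PBMT and fatigued PBMT groups received photobiomodulation therapy (PBMT) at 830 nm, 25 mW/cm² and 30 J/cm² for 20 min, and their muscle was taken 24 h after the light. Control mice were shaved, depilated and anesthetized for 20 min with no light and no sham light. Fatigued mice ran on a treadmill to exhaustion and were dissected directly after the run, and their run times differed and are not in the labels. Light and run time thus cannot be told apart where fatigued PBMT mice are compared with fatigued controls. Sedentary and fatigued mice were sequenced as separate projects, so exercise and sequencing project cannot be told apart in any comparison of fatigued with sedentary muscle.

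The deposited counts summed to between 43271093 and 46904076 per library in sedentary control mice (median 45278264) and to between 46327516 and 52775844 in sedentary PBMT mice (median 49421795.5). In the sedentary project the totals were thus higher with PBMT (exact permutation p = 0.00433). Fatigued control libraries held 56792327 to 68726155 counts (median 61892167.5) and fatigued PBMT libraries 53122528 to 68566029 (median 60228908.5; exact permutation p = 0.357). All 10 genes passed the filter on low counts in every comparison. The lowest count of any of the 10 in any library was 155, for Acvr2b, and the highest was 11450, for Smad3. Levels are given as CPM, counts scaled to a common effective library total (the total times its TMM scaling factor), and differences between groups as log2 fold changes from edgeR, with p-values adjusted over all genes tested and called at an adjusted p under 0.05.

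On the scale of CPM per kilobase of exon, 3 genes lay far above the other 7 in each group: Smad3, Smad4 and Mstn. In sedentary control muscle the mean levels per kilobase were 18.3 ± 2.44 (SD) for Smad3, 13.7 ± 1.75 for Smad4 and 12.4 ± 3.24 for Mstn. These 3 overlapped in order, and a gap without overlap set them apart from the receptors Tgfbr1 (4.04) and Tgfbr2 (3.87). Below another gap came Tgfb2 (2.92), Acvr2b (1.76), Smad2 (1.52), Smad7 (1.42) and Tgfb1, at 1.255 ± 0.333 CPM per kilobase, each overlapping its neighbour. Sedentary PBMT muscle held the same order of the first 3, with 15.9 for Smad3, 15.0 for Smad4 and 14.5 for Mstn, all overlapping, and the next gaps lay below Mstn and below Tgfb2 (3.28). In fatigued control muscle Smad3 stood alone on top at 26.8 CPM per kilobase, with no overlap with Mstn (19.1), while Mstn and Smad4 (13.85) overlapped. In that group gaps also lay below Smad4, below Tgfbr1 (4.22), below Tgfb2 (2.77) and below Tgfb1 (1.69), with Acvr2b last at 1.10 CPM per kilobase. Fatigued PBMT muscle had Smad3 at 31.1 CPM per kilobase, overlapping with Mstn (22.0), and a gap below Smad4 (13.3). From Tgfbr2 (5.00) down to Acvr2b (0.950), all neighbours in fatigued PBMT muscle overlapped on this scale.

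**Figure D1:**
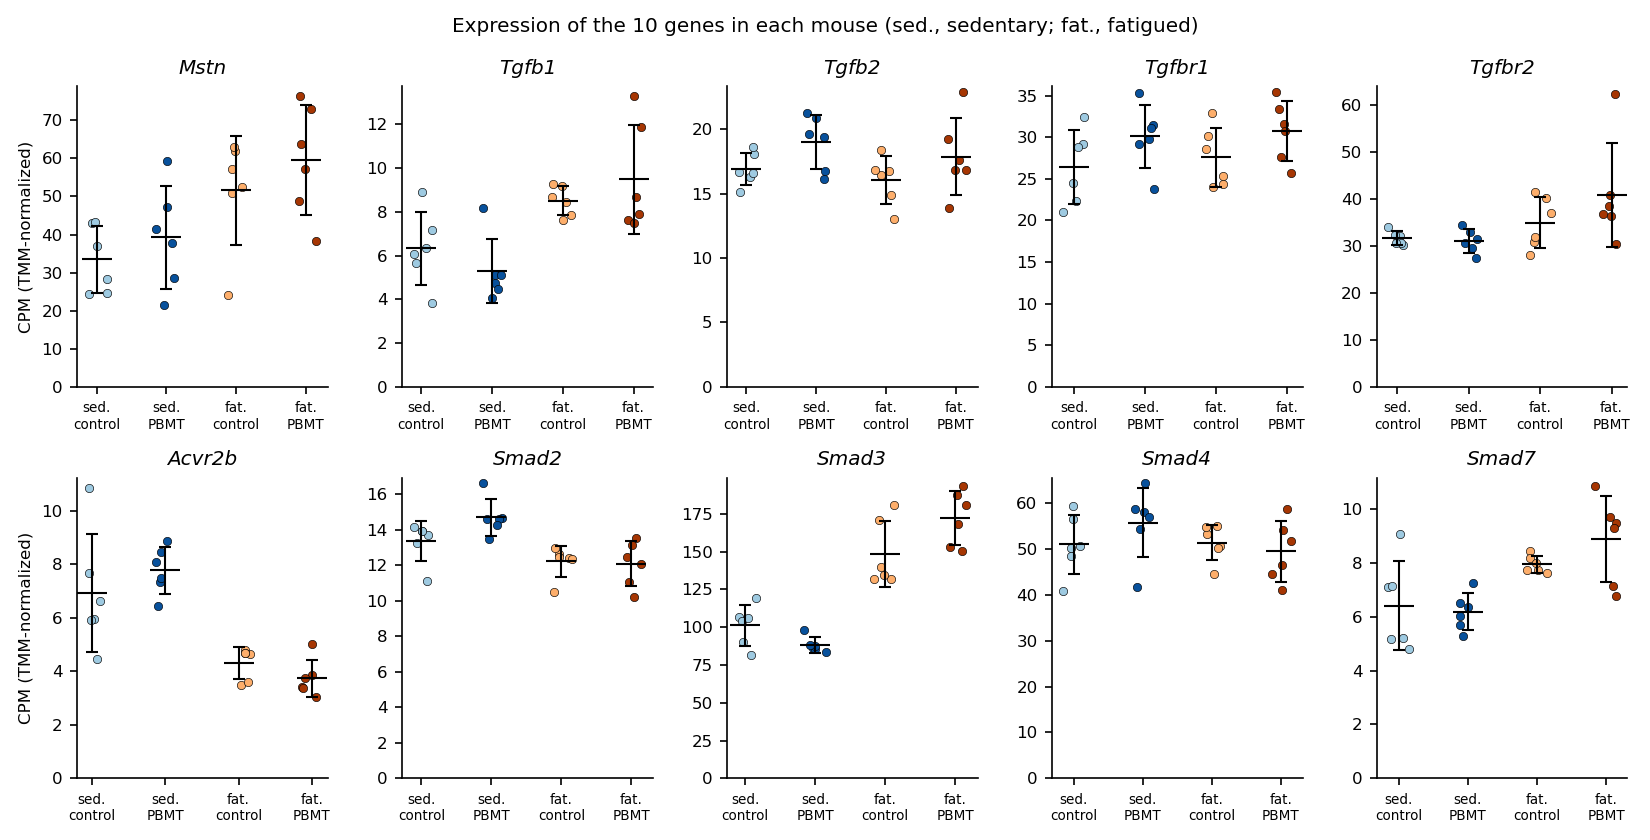
Level of each of the 10 genes in CPM (vertical axis, from 0) in each of 6 mice of the 4 groups; bars give the mean ± SD. Smad3 was higher in all 6 mice of each fatigued group than in any sedentary mouse of the matching treatment, whereas the PBMT and control groups overlapped for each gene.

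PBMT was compared with control in each exercise state, and none of the 10 genes was called in either. In sedentary muscle edgeR called 0 of the 10 genes, against 0.0282% of the 14177 genes tested, and DESeq2 and limma each called 0 of the 10. At an unadjusted p under 0.05, 1 of the 10 was lower (Smad3) and 0 were higher, against 7.63% of all genes in either direction. Of the 10 genes, 6 had a log2 fold change above 0 and 4 below, with a median of 0.14 beside -0.00186 for all genes tested. Not one of the 10 separated the groups without overlap, which 0.48% of genes did.

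In fatigued muscle, edgeR called 0 of the 10 genes, against 0% of the 14574 genes tested, and DESeq2 and limma each called 0 of the 10. At an unadjusted p under 0.05, 1 of the 10 was higher (Smad3) and 0 were lower, against 1.58% of all genes. The log2 fold change lay above 0 for 7 and below 0 for 3, with a median of 0.16 beside 0.00406 for all genes. No gene of the 10 separated the fatigued groups without overlap, which 0.0274% of genes did. The difference of the PBMT effect between the exercise states was tested as an interaction, which uses the same mice as both comparisons. For this difference edgeR called 0 of the 10, against 0.00662% of the 15108 genes tested, DESeq2 and limma each called 0 of the 10, and 1 of the 10 (Smad3) had an unadjusted p under 0.05, against 4.4% of all genes.

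For fatigued against sedentary muscle, edgeR called 2 of the 10 genes in control mice, near the share of all genes, and 6 of the 10 in PBMT mice. In control mice 1 of the 10 genes was called higher (Smad3), against 9.1% of genes tested, and 1 was called lower (Acvr2b), against 9.49%. Among PBMT mice 4 were called higher (Smad3, Tgfb1, Tgfbr2 and Smad7), against 14.1% of genes, and 2 lower (Acvr2b and Smad2), against 12.7%. Groups did not overlap for 1 gene of the 10 in control mice (Smad3), against 7.7% of genes, and for 2 in PBMT mice (Smad3 and Acvr2b), against 11.2%. With limma, which called 32.7% of all genes in control mice, 6 of the 10 were called there: beside Smad3 and Acvr2b also Mstn (0.56, adjusted p = 0.0409), Tgfb1 (0.45, adjusted p = 0.0201), Smad2 (-0.19, adjusted p = 0.0228) and Smad7 (0.40, adjusted p = 0.00920). In PBMT mice limma called 7 of the 10, against 32.7% of all genes, with Mstn (0.56, adjusted p = 0.0465) beside the 6 called by edgeR. The median log2 fold change of the 10 was 0.10 in control mice and 0.21 in PBMT mice, beside -0.01155 and 0.00210 for all genes tested. These 2 comparisons contrast different mice, but both were fitted with the mice of all groups, so their calls are not independent. Without fatigued control mouse 5, for example, Mstn was called in PBMT mice (0.60, adjusted p = 0.0403). Each comparison also shares its groups with the PBMT comparisons. Because whole muscle was sequenced, fewer cells of a type and less RNA per cell cannot be told apart in any of these values.

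**Figure D2:**
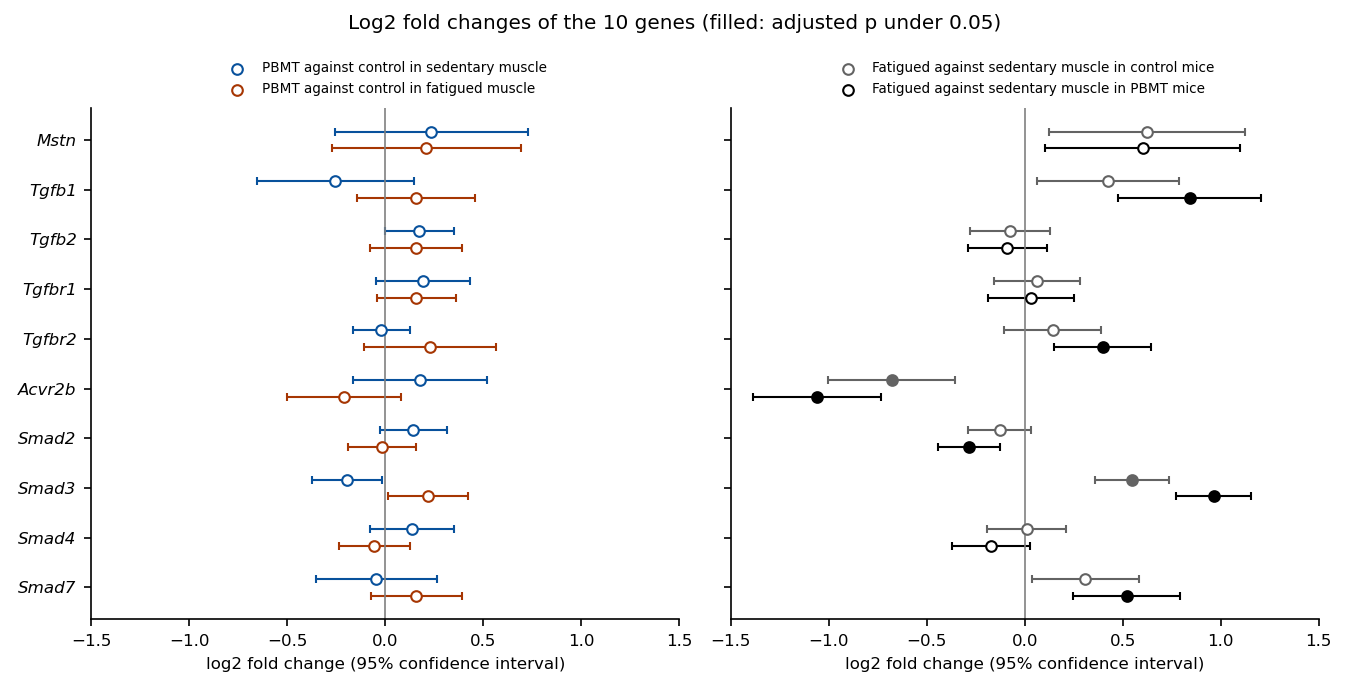
Log2 fold change (horizontal axis) of each of the 10 genes with its 95% confidence interval; left, PBMT against control in sedentary and in fatigued muscle; right, fatigued against sedentary muscle in control and in PBMT mice. Filled points have an adjusted p under 0.05: 0 of 10 on the left in either state, and 2 of 10 (control) and 6 of 10 (PBMT) on the right.

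Mstn encodes myostatin, the ligand made mainly by muscle fibers themselves (chromosome 1, 53061640 to 53068079, plus strand, GRCm38). Its lowest, median and highest levels were 24.4, 32.65 and 43.3 CPM in sedentary control muscle and 21.4, 39.5 and 59.4 CPM in sedentary PBMT muscle. In fatigued muscle they were 24.2, 54.8 and 62.9 CPM for control mice and 38.4, 60.5 and 76.3 CPM for PBMT mice. All 4 groups overlapped, and fatigued control mouse 5 lay level with the lowest sedentary controls while the other 5 lay above the highest. The PBMT difference in Mstn was 0.24 log2 in sedentary muscle (SE 0.23, 95% interval -0.26 to 0.73, adjusted p = 0.777). It was 0.21 in fatigued muscle (SE 0.22, 95% interval -0.27 to 0.69, adjusted p = 0.9998), and the difference between these effects was -0.02 (SE 0.34, adjusted p = 0.995). The sedentary value was 0.0798 without sedentary PBMT mouse 6 and 0.36 without sedentary PBMT mouse 2. The fatigued value was 0.0640 without fatigued control mouse 5 and 0.31 without fatigued PBMT mouse 6. Against sedentary muscle, fatigued muscle gave 0.62 in control mice (SE 0.24, 5 of 6 mice above every sedentary mouse, adjusted p = 0.0753) and 0.60 in PBMT mice (SE 0.24, 3 of 6 above, adjusted p = 0.0694). Neither was called by edgeR with all mice. Without fatigued control mouse 5, Mstn was called in control mice (0.77, adjusted p = 0.0204) and in PBMT mice (0.60, adjusted p = 0.0403). It was also called in PBMT mice without fatigued PBMT mouse 6 (0.71, adjusted p = 0.0379) and without sedentary PBMT mouse 6 (0.76, adjusted p = 0.0264), and with limma.

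Tgfb1 encodes TGF-beta 1, the first described ligand of the family (chromosome 7, 25687002 to 25705077, plus strand). Tgfb1 stood at 3.82, 6.22 and 8.89 CPM (lowest, median, highest) in sedentary control, 4.07, 4.95 and 8.19 in sedentary PBMT, 7.64, 8.56 and 9.25 in fatigued control and 7.501, 8.31 and 13.3 in fatigued PBMT muscle. The PBMT groups overlapped with their controls in both states, and 5 of 6 sedentary PBMT mice lay below all fatigued mice. The PBMT effect on Tgfb1 was -0.25 log2 in sedentary muscle (SE 0.19, adjusted p = 0.717) and 0.16 in fatigued muscle (SE 0.14, adjusted p = 0.9998). Without fatigued PBMT mouse 5 the fatigued value was 0.0344, and without 1 mouse the sedentary value ran from -0.42 (sedentary PBMT mouse 2 left out) to -0.13 (sedentary control mouse 3 left out). Tgfb1 rose by 0.84 log2 from sedentary to fatigued muscle in PBMT mice (SE 0.18, adjusted p = 9.86e-04, 3 of 6 mice above every sedentary mouse). In control mice the value was 0.43 (SE 0.18, adjusted p = 0.0920), which became a call without sedentary control mouse 3 (0.56, adjusted p = 0.0335). The difference between these 2 values was 0.42 (SE 0.25, adjusted p = 0.946), so the response was not shown to differ with PBMT.

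Tgfb2 encodes TGF-beta 2, a second ligand of the same receptors (chromosome 1, 186622792 to 186705989, minus strand). Its levels were 15.1, 16.7 and 18.6 CPM (lowest, median, highest) in sedentary control, 16.1, 19.5 and 21.3 in sedentary PBMT, 13.0, 16.6 and 18.4 in fatigued control and 13.9, 17.2 and 22.9 in fatigued PBMT muscle. All groups overlapped, and 4 of 6 sedentary PBMT mice lay above every sedentary control. The PBMT effect was 0.17 log2 in sedentary (SE 0.08, adjusted p = 0.648) and 0.16 in fatigued muscle (SE 0.11, adjusted p = 0.9998), with a difference of -0.01 (adjusted p = 0.993). Without fatigued PBMT mouse 3 the fatigued value was 0.0745. Fatigued against sedentary muscle gave -0.08 in control (adjusted p = 0.642) and -0.09 in PBMT mice (adjusted p = 0.547). The control value was -0.0215 without fatigued control mouse 5. The value in PBMT mice was -0.02125 without fatigued PBMT mouse 1 and -0.17 without fatigued PBMT mouse 3. An antisense gene, Gm29491, overlaps Tgfb2 with a median count of 13 beside 919 for Tgfb2.

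Tgfbr1 and Tgfbr2 encode the type I and type II receptors of TGF-beta (chromosome 4, 47353222 to 47414931, plus strand, and chromosome 9, 116084293 to 116175360, minus strand). Tgfbr1 ranged from 21.1 CPM in the lowest sedentary control to 35.4 in the highest fatigued PBMT mouse, with group medians of 26.65 (sedentary control), 30.4 (sedentary PBMT), 26.9 (fatigued control) and 31.2 CPM (fatigued PBMT). In both states the PBMT median of Tgfbr1 lay above the control median, with overlapping groups. Its PBMT effect was 0.19 log2 in sedentary (SE 0.11, adjusted p = 0.677) and 0.16 in fatigued muscle (SE 0.09, adjusted p = 0.9998), and the difference between them was -0.03 (adjusted p = 0.983). For Tgfbr1, fatigued against sedentary muscle gave 0.06 in control (adjusted p = 0.728) and 0.03 in PBMT mice (adjusted p = 0.860). The control value was 0.0028 without sedentary control mouse 4 and 0.13 without sedentary control mouse 6.

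Tgfbr2 levels were 30.2, 31.4 and 34.1 CPM (lowest, median, highest) in sedentary control, 27.4, 31.0 and 34.5 in sedentary PBMT, 28.1, 34.6 and 41.5 in fatigued control and 30.4, 37.7 and 62.4 in fatigued PBMT muscle. The highest value of Tgfbr2 belonged to fatigued PBMT mouse 5, and the next in its group was 41.0 CPM. PBMT gave -0.02 log2 in sedentary (SE 0.07, adjusted p = 0.948) and 0.23 in fatigued muscle (SE 0.16, adjusted p = 0.9998; 0.0665 without fatigued PBMT mouse 5) for Tgfbr2. In PBMT mice Tgfbr2 rose by 0.40 log2 with fatigue (SE 0.12, adjusted p = 0.0156, 5 of 6 mice above every sedentary mouse), and without fatigued PBMT mouse 5 it was 0.23 and no longer called (adjusted p = 0.0675). The value in control mice was 0.14 (adjusted p = 0.435; 0.0887 without fatigued control mouse 5 and 0.0545 with a replicate block and the length trend removed), and the difference between PBMT and control mice was 0.25 (SE 0.17, adjusted p = 0.946; 0.08875 without fatigued PBMT mouse 5).

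Acvr2b encodes the activin receptor type IIB, the main type II receptor that myostatin binds (chromosome 9, 119402118 to 119434995, plus strand). Its lowest, median and highest levels were 4.44, 6.30 and 10.85 CPM in sedentary control, 6.44, 7.79 and 8.86 in sedentary PBMT, 3.47, 4.66 and 4.81 in fatigued control and 3.02, 3.56 and 5.03 in fatigued PBMT muscle. Every fatigued PBMT mouse lay below every sedentary PBMT mouse, and 2 of 6 fatigued controls lay below every sedentary control. Acvr2b fell by 0.68 log2 with fatigue in control mice (SE 0.16, 0.6246 times the sedentary level, adjusted p = 0.00370). In PBMT mice it fell by 1.06 log2 (SE 0.16, 0.480 times the sedentary level, 6 of 6 mice, adjusted p = 2.29e-05). The PBMT effect on Acvr2b was 0.18 in sedentary (SE 0.16, adjusted p = 0.764) and -0.21 in fatigued muscle (SE 0.14, adjusted p = 0.9998), with a difference of -0.38 (SE 0.22, adjusted p = 0.946). The sedentary value was 0.07785 without sedentary control mouse 3 and 0.34 without sedentary control mouse 4. An antisense gene, Gm47320, overlaps Acvr2b with a median count of 57.5 beside 283.5 for Acvr2b, and it gave -0.39 in control (adjusted p = 0.186) and -0.31 in PBMT mice (adjusted p = 0.268). The strand setting of the counting is not given in the sources used here, so reads of the antisense partners Gm29491 and Gm47320 cannot be told apart from reads of Tgfb2 and Acvr2b.

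Smad3 carries the signal of TGF-beta and myostatin into the nucleus and binds DNA there (ENSMUSG00000032402, chromosome 9, 63646767 to 63757994, minus strand). Its lowest, median and highest levels were 81.3, 105.2 and 119.5 CPM in sedentary control and 83.8, 86.95 and 97.9 CPM in sedentary PBMT muscle. In fatigued muscle they were 131.9, 137 and 181.1 CPM for control mice and 150.5, 174.5 and 193.5 CPM for PBMT mice. Every fatigued mouse lay above every sedentary mouse, and the PBMT groups overlapped with their controls in both states. Among sedentary mice, 5 of 6 PBMT values lay close together and sedentary PBMT mouse 3 stood above them. In fatigued control muscle, mice 3 and 4 lay within the PBMT range and the other 4 below the whole PBMT group. Smad3 rose with fatigue by 0.55 log2 in control mice (SE 0.09, 95% interval 0.36 to 0.74, 1.46-fold, 6 of 6 mice, adjusted p = 1.75e-04). In PBMT mice it rose by 0.97 log2 (SE 0.09, 95% interval 0.77 to 1.16, 1.95-fold, 6 of 6 mice, adjusted p = 4.76e-08), and by p it ranked 31 among all genes tested there.

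The PBMT effect on Smad3 had opposite signs in the 2 states, and neither value was called. In sedentary muscle it was -0.20 log2 (SE 0.09, 95% interval -0.38 to -0.02, 0.873-fold, 0 of 6 PBMT mice below every control, adjusted p = 0.639). In fatigued muscle it was 0.22 (SE 0.10, 95% interval 0.01 to 0.42, 1.16-fold, 2 of 6 PBMT mice above every control, adjusted p = 0.9998). The difference of the effect on Smad3 was 0.42 (SE 0.13, 95% interval 0.15 to 0.69), and it was not called (adjusted p = 0.946). By unadjusted p, Smad3 ranked 45 of 15108 genes for this difference.

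Smad2 is the other Smad that the TGF-beta and myostatin receptors phosphorylate (chromosome 18, 76241580 to 76310963, plus strand). Its levels were 11.1, 13.8 and 14.1 CPM (lowest, median, highest) in sedentary control, 13.5, 14.6 and 16.6 in sedentary PBMT, 10.5, 12.4 and 12.9 in fatigued control and 10.2, 12.3 and 13.5 in fatigued PBMT muscle. In sedentary muscle 5 of 6 PBMT mice lay above every control, and in fatigued muscle the groups overlapped widely. The PBMT effect on Smad2 was 0.14 log2 in sedentary (SE 0.08, adjusted p = 0.670) and -0.02 in fatigued muscle (SE 0.08, adjusted p = 0.9998). Without sedentary control mouse 4 the sedentary value was 0.0920. With fatigue Smad2 fell by 0.28 log2 in PBMT mice (SE 0.08, 5 of 6 mice below every sedentary mouse, adjusted p = 0.00775). The value in control mice was -0.13 (SE 0.08, adjusted p = 0.259), and the difference between them was -0.16 (SE 0.11, adjusted p = 0.946). With a trend on gene length removed, Smad2 was called in control mice as well (-0.21, adjusted p = 0.0483), which made 3 of the 10 called there. With that and a replicate block, Smad2 was not called in control mice, and 2 of the 10 were.

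Smad4 is the common partner that joins phosphorylated Smads (chromosome 18, 73639009 to 73703780, minus strand). Smad4 ranged from 40.8 CPM in the lowest sedentary control to 64.4 in the highest sedentary PBMT mouse, with group medians of 50.5 (sedentary control), 57.6 (sedentary PBMT), 52.0 (fatigued control) and 49.1 CPM (fatigued PBMT). All 4 groups overlapped widely. For Smad4 PBMT gave 0.13 log2 in sedentary (SE 0.10, adjusted p = 0.718) and -0.05 in fatigued muscle (SE 0.09, adjusted p = 0.9998). Without 1 mouse these ran from 0.0769 (sedentary control mouse 3 left out) to 0.21 (sedentary PBMT mouse 2) and from -0.11 (fatigued PBMT mouse 4) to -0.00805 (fatigued PBMT mouse 5). Fatigue gave 0.01 in control (adjusted p = 0.953) and -0.17 in PBMT mice (adjusted p = 0.199), and the latter became a call without sedentary PBMT mouse 2 (-0.25, adjusted p = 0.0421). The difference between these 2 values was -0.18 (adjusted p = 0.946).

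Smad7 is an inhibitory Smad that blocks the type I receptor and is itself induced by TGF-beta (chromosome 18, 75367529 to 75395935, plus strand). Its lowest, median and highest levels were 4.79, 6.15 and 9.07 CPM in sedentary control, 5.27, 6.18 and 7.25 in sedentary PBMT, 7.63, 7.86 and 8.44 in fatigued control and 6.76, 9.38 and 10.9 in fatigued PBMT muscle. In fatigued muscle 4 of 6 PBMT mice lay above every control and 2 lay below every control. For Smad7 PBMT gave -0.04 log2 in sedentary (SE 0.14, adjusted p = 0.946) and 0.16 in fatigued muscle (SE 0.11, adjusted p = 0.9998). Smad7 rose with fatigue by 0.52 log2 in PBMT mice (SE 0.13, 4 of 6 mice above every sedentary mouse, adjusted p = 0.00503). In control mice the value was 0.31 (SE 0.13, adjusted p = 0.106), which became a call without sedentary control mouse 4 (0.43, adjusted p = 0.0109). The difference between PBMT and control mice was 0.21 (SE 0.19, adjusted p = 0.946; 0.0832 without sedentary control mouse 4), and the PBMT effect in fatigued muscle was 0.0920 without fatigued PBMT mouse 6.

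A fixed list of 84 other genes of the pathway was read beside the 10, in 7 groups by role. This list was also chosen with earlier results of these data known, so its counts beside the shares of all genes are descriptions. Low counts removed 5 of them from every comparison (Gdf15, Gdf6, Wfikkn1, Grem1 and Sost), and Gdf5, Acvr1c and Ltbp2 from the sedentary PBMT comparison as well. In sedentary muscle edgeR called 0 of 76 with PBMT, limma 0 and DESeq2 1, and at an unadjusted p under 0.05 there were 3 higher and 3 lower of 76, near the share of all genes (7.63%). These 6 were named by the rule for comparisons without a call. Gdf11, a ligand close to myostatin in sequence, stood at 4.29, 5.61 and 6.24 CPM (lowest, median, highest) in sedentary control and at 6.395, 7.51 and 10.03 CPM in sedentary PBMT muscle. All 6 PBMT mice lay above every control for Gdf11, and the log2 fold change was 0.52 (SE 0.13, adjusted p = 0.268), which only DESeq2 called (0.51, adjusted p = 0.0349, with adjusted p from 0.0349 to 0.565 over the alternatives tried). Acvr2a, another type II receptor for myostatin, gave 0.27 (SE 0.09, 4 of 6 mice above every control, adjusted p = 0.506), and Smurf2, a ubiquitin ligase of the pathway, gave 0.22 (SE 0.10, 4 of 6 above, adjusted p = 0.648). Acvrl1, a type I receptor of endothelial cells, gave -0.25 (SE 0.10, 4 of 6 below, adjusted p = 0.607). Id1 and Id3, target genes of the BMP arm, gave -0.52 (SE 0.22, 1 of 6 below, adjusted p = 0.638) and -0.41 (SE 0.14, 3 of 6 below, adjusted p = 0.504). Without sedentary control mouse 4, Id1 gave -0.21.

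In fatigued muscle edgeR called 0 of 79 pathway genes with PBMT, against 0% of all genes, with 0 at an unadjusted p under 0.05 (1.58% of all genes), and DESeq2 and limma each called 0. The log2 fold change lay above 0 for 59 and below 0 for 20 (above 0 for 52% of all genes), with a median of 0.10 beside 0.00406 for all genes tested. Of the cell type markers described below, it lay above 0 for 5 of 5 tendon, 5 of 5 slow fiber, 5 of 6 myeloid and 4 of 5 mesenchymal genes. It lay above 0 for 0 of 7 fast fiber and 0 of 4 Schwann cell genes. The other lists were mixed, with 3 of 5 endothelium, 2 of 4 smooth muscle, 2 of 4 satellite cell, 3 of 4 adipocyte and 3 of 4 erythrocyte genes above 0. The 1 keratinocyte gene tested lay below 0, and the part of these cells was not tested. Among the values with the smallest p were 0.35 for Tgif1 (SE 0.18), -0.82 for Bmp7 (SE 0.47), -0.54 for Cdkn2b (SE 0.33), 0.11 for Ltbp3 (SE 0.07) and 0.40 for Thbs1 (SE 0.28), each with an adjusted p of 0.9998. Bmp7 and Cdkn2b had low levels: Bmp7 was at most 0.92 CPM in any mouse, and Cdkn2b lay between 0.513 and 1.086 CPM in fatigued PBMT mice. Leaving out 1 mouse moved Bmp7 to -0.41 (fatigued control mouse 6), Tgif1 to 0.23, Thbs1 to 0.21 and Ltbp3 to 0.0681 (each fatigued PBMT mouse 3), and limma gave -0.20 for Cdkn2b. For the difference of the PBMT effect between states, edgeR called 0 of 79 (3 higher and 1 lower at an unadjusted p under 0.05, near the 4.4% of all genes), and DESeq2 and limma each called 0. Among the values with the smallest p were 0.65 for Id3 (SE 0.24), 0.28 for Acvrl1 (SE 0.13), 0.64 for Id1 (SE 0.30; 0.31 without sedentary control mouse 4), -0.31 for Trim33 (SE 0.15) and -1.13 for Bmp7 (SE 0.58; -0.72 without fatigued control mouse 6), each with an adjusted p of 0.946. Bmp7 is a ligand of the BMP arm and Trim33 a nuclear ubiquitin ligase that binds Smads.

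With fatigue, 22 of 79 pathway genes were called higher and 3 lower in control mice, against 9.1% and 9.49% of all genes tested, with a median log2 fold change of 0.40 beside -0.01155 for all genes. Thbs1, which can activate latent TGF-beta, had the largest rise with edgeR and all mice among the genes called there (1.36, SE 0.24, 6 of 6 mice above every sedentary mouse, adjusted p = 4.11e-04), from a mean of 6.96 to 17.9 CPM. Next came Inhbb, a subunit of activin B (1.35, SE 0.31, 5 of 6, adjusted p = 0.00367), Fn1, the matrix protein fibronectin (1.34, SE 0.35, 6 of 6, adjusted p = 0.0101), and Tgif1, a nuclear repressor of Smad targets (1.32, SE 0.17, 6 of 6, adjusted p = 9.60e-06). Without sedentary control mouse 4 the rise of Inhbb was 1.61, and that of Thbs1 was at most 1.45 without any 1 mouse. Lox, an enzyme that links collagen, rose by 0.93 (SE 0.26, 5 of 6, adjusted p = 0.0168). The inhibitory Smad6 fell by 0.70 (SE 0.16, 5 of 6 mice below every sedentary mouse, adjusted p = 0.00317). Bmpr1a, a type I receptor for BMP ligands, fell by 0.42 (SE 0.12, 1 of 6 below, adjusted p = 0.0184), and without sedentary control mouse 6 the value was -0.34 and not called (adjusted p = 0.0574). Strap, which binds the TGF-beta receptors, fell by 0.17 (SE 0.05, 6 of 6 below, adjusted p = 0.0206). Strap was no longer called without fatigued control mouse 1 (adjusted p = 0.0523), 3 (adjusted p = 0.0558) or 6 (adjusted p = 0.0515), or without sedentary control mouse 6 (adjusted p = 0.0567). The same held with no filter on low counts (-0.15, adjusted p = 0.158), with the length trend removed (-0.19, adjusted p = 0.0563) and with that and a replicate block (-0.19, adjusted p = 0.0742), so the fold stayed of similar size.

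Among PBMT mice, 35 of 79 pathway genes were called higher and 8 lower with fatigue, against 14.1% and 12.7% of all genes tested, with a median of 0.46 beside 0.00210 for all genes. Thbs1 rose by 1.72 (SE 0.24, adjusted p = 1.72e-05) and Tgif1 by 1.72 (SE 0.17, adjusted p = 9.13e-08), each in 6 of 6 mice above every sedentary mouse. Fn1 rose by 1.65 (SE 0.35, 6 of 6, adjusted p = 0.00147), and the collagen genes Col1a1 by 1.69 (SE 0.42, 5 of 6, adjusted p = 0.00511) and Col1a2 by 1.38 (SE 0.35, 5 of 6, adjusted p = 0.00623). Without fatigued PBMT mouse 5, Col1a1 was still called, at 1.12. In control mice Col1a1 gave 1.10 (adjusted p = 0.0673) and Col1a2 0.90 (adjusted p = 0.0773), not called, and the difference of the 2 responses was 0.59 (adjusted p = 0.946) for Col1a1 and 0.48 (adjusted p = 0.946) for Col1a2. Smad6 fell by 0.61 (SE 0.16, 6 of 6 below, adjusted p = 0.00577), Bmpr1a by 0.60 (SE 0.12, 5 of 6, adjusted p = 7.22e-04) and Trim33 by 0.42 (SE 0.10, 4 of 6, adjusted p = 0.00386).

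Among the lower genes of PBMT mice were also Bmpr2, the type II receptor for BMP ligands (-0.37, SE 0.12, 5 of 6 below, adjusted p = 0.0234), and Acvr2a (-0.32, SE 0.10, 4 of 6 below, adjusted p = 0.0220). Bmpr2 was not called without fatigued PBMT mouse 1 (adjusted p = 0.0657) or 5 (adjusted p = 0.0661), or without sedentary PBMT mouse 1 (adjusted p = 0.0608), 3 (adjusted p = 0.0552) or 5 (adjusted p = 0.0592), or with no filter on low counts (-0.36, adjusted p = 0.0503). Acvr2a was not called without fatigued PBMT mouse 1 (adjusted p = 0.0659), 3 (adjusted p = 0.0692) or 5 (adjusted p = 0.0583), or without sedentary PBMT mouse 1 (adjusted p = 0.0571) or 6 (adjusted p = 0.0667). In control mice Trim33 gave -0.11 (adjusted p = 0.508), Bmpr2 -0.23 (adjusted p = 0.179) and Acvr2a -0.08 (adjusted p = 0.613), none of them called. The differences of the response were -0.31 for Trim33, -0.14 for Bmpr2 and -0.24 for Acvr2a, with adjusted p of 0.946, 0.949 and 0.946.

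Of all genes tested, 9.1% were called higher and 9.49% lower with fatigue in control mice, and 14.1% and 12.7% in PBMT mice. With the length trend removed the split of all genes turned to 1087 higher and 1603 lower in control mice (from 1375 and 1434) and to 1754 and 2480 in PBMT mice (from 2135 and 1916), and with no filter on low counts it was 1179 and 899 in control mice. By role, the extracellular antagonists and carriers had 5 of 16 called higher in control mice and 11 of 16 in PBMT mice, with medians of 0.43 and 0.75 and 0 lower in either. Target genes of the TGF-beta arm had 5 of 16 and 9 of 16 higher, with medians of 0.63 and 0.89. The list of ligands, which also holds the protease gene Bmp1, had 4 of 13 higher in both, and target genes of the BMP arm 2 of 6 and 3 of 6. Receptors were split, with 3 of 10 higher and 1 lower in control mice and 3 higher and 4 lower in PBMT mice, as were the intracellular regulators (3 of 14 higher and 1 lower, then 5 higher and 3 lower). Of the 4 other Smads, Smad6 was called lower in both and none was called higher. Leaving out 1 mouse moved some of these small counts by more than 1.5 times. In control mice the antagonists reached 8 and the TGF-beta targets 8 without fatigued PBMT mouse 5, and the TGF-beta targets came to 3 without fatigued control mouse 1, 5 or 6 or sedentary control mouse 1 or 6, and to 2 without sedentary control mouse 5. The BMP targets came to 1 without any of fatigued control mice 1, 2, 4 and 5 or sedentary control mice 1, 2, 4, 5 and 6.

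The receptors called lower in control mice came to 0 without sedentary control mouse 6 and to 2 without sedentary control mouse 4, where 1 ligand was also called lower. In PBMT mice the receptors called lower came to 1 without fatigued PBMT mouse 1 or 5 and to 2 without fatigued PBMT mouse 3 or sedentary PBMT mouse 1, 3, 5 or 6. The intracellular regulators called lower came to 7 without sedentary PBMT mouse 2 and 5 without sedentary control mouse 4 in PBMT mice, and in control mice to 0 without fatigued control mouse 1, 3 or 6 or sedentary control mouse 6.

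**Figure D3:**
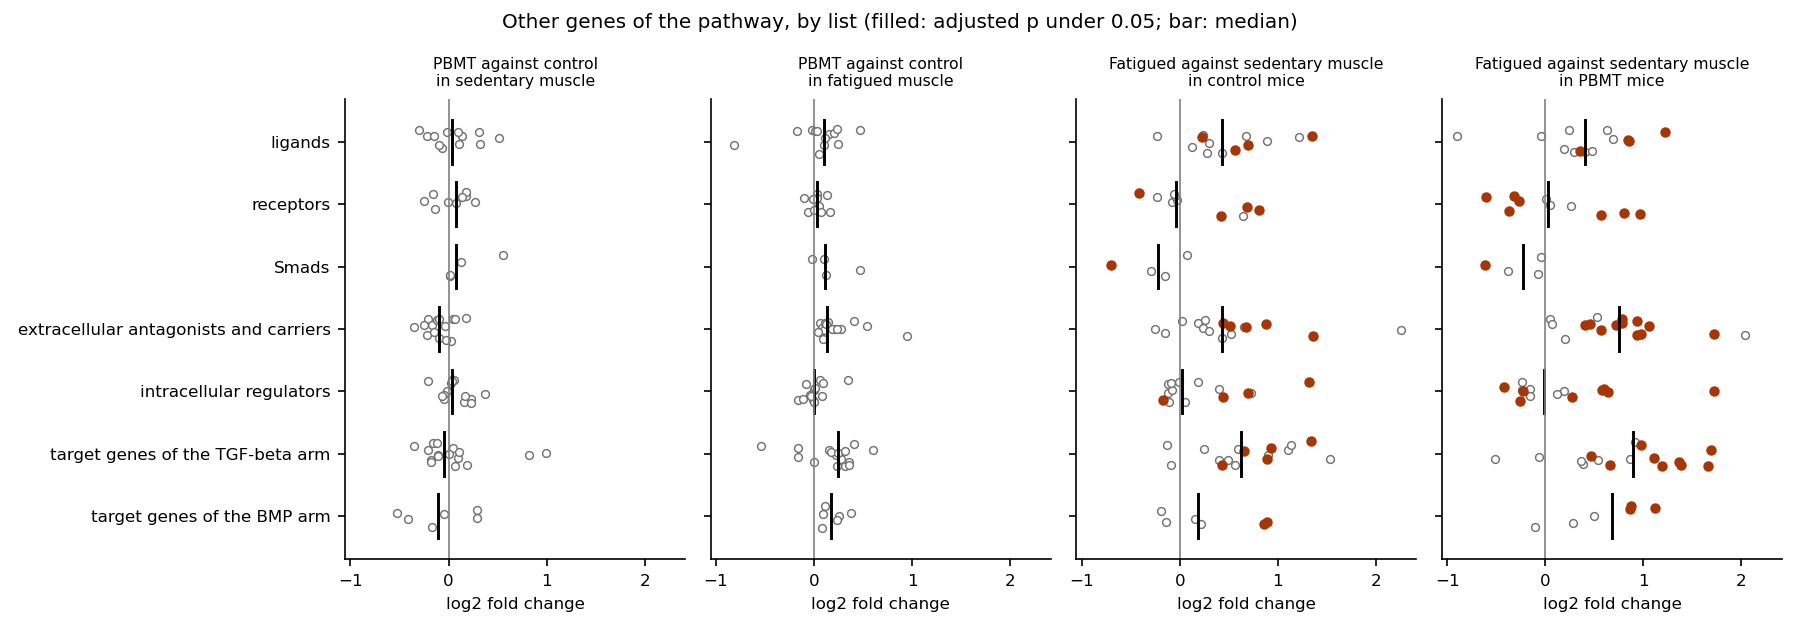
Log2 fold change (horizontal axis) of the other pathway genes in the 7 groups by role (vertical axis). Panels show PBMT against control in sedentary and in fatigued muscle, and fatigued against sedentary muscle in control and in PBMT mice. Filled points have an adjusted p under 0.05 and bars mark the median of each group, such as 0.43 (control) and 0.75 (PBMT mice) for the antagonists and carriers with fatigue.

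Marker genes of the cell types in muscle were read in the same libraries, and their part in these results was not tested. All 7 fast fiber genes were detected. Their mean summed level was 133200 CPM in sedentary control, 140000 in sedentary PBMT, 180500 in fatigued control and 176000 in fatigued PBMT muscle. By mean level, Myh4 was the most abundant of them in sedentary PBMT and both fatigued groups, and Atp2a1 in sedentary control muscle. With fatigue 5 of these 7 were called higher in control mice and 3 of 7 in PBMT mice, where 9.1% and 14.1% of all genes were. The slow fiber genes summed to 93.8, 91.75, 96.5 and 122.8 CPM in the same order, so the fast genes that define the TA muscle stood far above the slow ones in each group. The 5 tendon genes, led by Fmod, summed to 152.9, 156.9, 307.5 and 363.4 CPM, and 1 of 5 was called higher with fatigue in control mice and 2 of 5 in PBMT mice. The 5 interstitial mesenchymal genes, led by Col15a1, summed to 124, 105.8, 153.4 and 162.1 CPM, with 0 of 5 and 3 of 5 called higher. Myeloid genes, led by Lyz2, summed to 54.9, 36.9, 60.85 and 64.25 CPM, with 1 of 6 and 4 of 6 called higher. Fatigued PBMT mouse 5, the highest mouse for Tgfbr2, Fn1 and Col1a1, also had the highest tendon sum (818 CPM), mesenchymal sum (277 CPM), myeloid sum (126.1 CPM) and adipocyte sum (103.3 CPM) of its group. The same mouse was highest for slow fiber (171.7 CPM), endothelium (355.8 CPM) and erythrocyte sums (116.2 CPM), and lowest for the fast fiber sum (155800 CPM). It was not the highest for smooth muscle, satellite cell, Schwann cell or keratinocyte sums. None of the genes in the tendon, mesenchymal or myeloid lists was at 0 throughout a group.

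Other lists stood, in the same order of groups, at 265.3, 273.8, 295.1 and 304.3 CPM for endothelium, 545.2, 558.1, 570.7 and 529.4 for smooth muscle, 9.63, 10.89, 11.25 and 11.82 for satellite cells and 64.5, 78.2, 81.8 and 61.4 for Schwann cells. In the smooth muscle list Rgs5 made up most of the sum (464.1 CPM in sedentary control muscle), and 1 of 4 genes was called higher with fatigue in control mice and 1 of 4 in PBMT mice, with medians of 0.39 and 0.26. Myh11 of that list gave 0.64 in control mice (adjusted p = 0.00288). Adipocyte genes summed to 22.5, 21.5, 35.1 and 44.7 CPM, erythrocyte genes to 93.6, 90.6, 81.1 and 82.7 and keratinocyte genes to 2.80, 6.29, 2.18 and 1.65. The keratinocyte sum of 1 sedentary PBMT mouse (mouse 4) was 21.04 CPM while the group medians were 2.53 (sedentary control) and 2.51 (sedentary PBMT), and 1 keratinocyte gene (Krt15) was at 0 in all fatigued mice. With fatigue, the other lists had 1 higher and 1 lower of 5 (slow fiber) and 0 of 5 (endothelium) called in control mice. In PBMT mice there were 1 higher of 5 (slow fiber), 1 higher and 1 lower of 5 (endothelium), 1 lower of 4 (satellite cell) and 1 higher of 4 (adipocyte), and the 1 keratinocyte gene tested was called lower. No other gene of the satellite cell, Schwann cell, adipocyte, keratinocyte and erythrocyte lists was called in either.

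The genes most like Smad3 over the 24 mice, by Pearson r of log2 CPM after subtracting group means, were Jak1 (0.762), 4930451G09Rik (0.722), Hist1h1e (0.719), Exoc7 (0.685) and 2610507I01Rik (0.678). For Mstn they were Castor2 (0.888), Xpr1 (0.850), Neo1 (0.846), Napepld (0.827) and Tmcc1 (0.825). These r values describe likeness within groups of mice that share a sequencing project.

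Promoter windows from 250 bases before to 50 bases after the gene start from RefSeq (GRCm38.p6) were matched by symbol for 7 of the 10 genes in the set used here, and those of Smad2, Smad4 and Smad7 were not analysed here. The windows of Smad3 and Acvr2b are shown because these genes were called in both comparisons of fatigued with sedentary muscle, and that of Mstn for contrast as the ligand of the muscle fiber. Capitals mark CAGACA (a Smad-binding sequence), TATAAA (the TATA box) and GGGCGG (the GC box), each searched on both strands, so CCGCCC marks a GC box on the other strand. Smad3 lies at chr9:63757945-63758244 (minus strand), Acvr2b at chr9:119401928-119402227 (plus strand) and Mstn at chr1:53061390-53061689 (plus strand), each written 5′ to 3′.
Smad3: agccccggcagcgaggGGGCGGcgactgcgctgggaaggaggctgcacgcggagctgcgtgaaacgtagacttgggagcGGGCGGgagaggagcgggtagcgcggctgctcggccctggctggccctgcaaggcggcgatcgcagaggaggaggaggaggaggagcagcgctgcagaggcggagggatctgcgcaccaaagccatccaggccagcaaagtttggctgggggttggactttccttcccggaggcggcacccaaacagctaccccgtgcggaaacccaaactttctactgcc
Acvr2b: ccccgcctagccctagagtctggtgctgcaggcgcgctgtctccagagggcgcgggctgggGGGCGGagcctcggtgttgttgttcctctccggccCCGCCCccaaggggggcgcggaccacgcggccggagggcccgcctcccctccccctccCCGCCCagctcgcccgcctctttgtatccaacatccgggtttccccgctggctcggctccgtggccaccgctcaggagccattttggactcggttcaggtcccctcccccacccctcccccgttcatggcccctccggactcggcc
Mstn: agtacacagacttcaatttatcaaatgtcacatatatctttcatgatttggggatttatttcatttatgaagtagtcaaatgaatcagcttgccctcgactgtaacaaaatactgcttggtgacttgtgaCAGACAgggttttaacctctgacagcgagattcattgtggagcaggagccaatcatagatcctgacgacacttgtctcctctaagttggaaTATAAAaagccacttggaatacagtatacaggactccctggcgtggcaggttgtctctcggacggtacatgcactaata
The Smad3 window held 67.7% G and C, 25 CpG and 2 GC boxes, and the Acvr2b window 73.3%, 27 CpG and 3 GC boxes, with 0 CAGACA and 0 TATAAA in both. The Mstn window held 41.3% G and C, 6 CpG, 1 CAGACA, 1 TATAAA and 0 GC boxes. CANNTG (the E-box) was found 4 times in Mstn and 0 times in Smad3 and Acvr2b, GTCTAGAC (a palindromic Smad sequence) 0 times in all 3, and no match of one motif overlapped another. Among 32851 promoter windows of the same length, the shares with a match were 21% for CAGACA, 13.6% for TATAAA, 35.7% for GGGCGG, 72.3% for CANNTG and 0.213% for GTCTAGAC, and the median window held 52.7% G and C and 7 CpG. These matches describe letters only, and binding was not measured.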

How the data were processed

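The deposited files give a count per Ensembl gene for 24 libraries (poly(A) RNA, NEB directional kit, paired-end reads of 150 bases). The submitters' processing notes name Trimmomatic, STAR 2.7.1a, Picard 2.20.4, StringTie 2.0.4, featureCounts 1.6.0, HTSeq and build GRCm38. Which tool made the counts, the strand setting, the annotation and whether reads or pairs were counted are not given in the sources used here. Symbols, positions and exon lengths came from GENCODE M21, which matched 55227 of 55487 identifiers. Genes were filtered with filterByExpr (minimum count 10), scaled by TMM and tested with robust quasi-likelihood fits in edgeR 4.0.16 (R 4.3.3), and p-values were adjusted by Benjamini-Hochberg across every gene tested. Each PBMT comparison used the 12 mice of its project, and the fatigue comparisons and the interaction used all 24. DESeq2 1.42.0, limma 3.58.1 (voom with sample weights), other filters and scaling, a length trend (loess span 0.3), a replicate block and leaving out each mouse served as alternatives. The fits were tested on simulated data. Of the 84 other pathway genes, each comparison names all that were called where there were at most 10, otherwise up to 5 in each direction, taken by size of the log2 fold change, and with no call the 6 with the smallest p; 1 gene that this rule names is not reported here. The members and lists, with 12 marker lists of 57 genes, were chosen with earlier results of these data known. Among 276 pairs of libraries none was a duplicate (smallest chi-square per degree of freedom 11.5).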

Additional observations from a re-analysis of the deposited data

Results flagged for a closer look

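In groups of 6 mice, a highest or lowest value was marked when its gap to the nearest other mouse, divided by the range of its group, was above Dixon's 95% critical value. This held in 14 of 124 pairs of gene and group, and chance would mark about 1 in 20 groups. Among the 10 genes, Mstn in fatigued control mouse 5 stood at 24.17 CPM (next 50.83), Tgfb1 in sedentary PBMT mouse 2 at 8.193 (next 5.126) and Tgfbr2 in fatigued PBMT mouse 5 at 62.38 (next 40.96). Smad2 stood at 11.13 CPM in sedentary control mouse 4 (next 13.26) and at 10.48 in fatigued control mouse 1 (next 12.36), and Smad3 at 97.91 in sedentary PBMT mouse 3 (next 88.49).

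Among the other pathway genes, sedentary control mouse 4 was far above its group for Id1 (29.62 CPM, next 14.52), Ltbp3 (60.12, next 41.26) and Smad6 (9.53, next 6.664). Fatigued PBMT mouse 5 was far above its group for Fn1 (231.2 CPM, next 87.41) and Col1a1 (1457, next 577.2). Single values far from the rest were also Smurf2 in fatigued control mouse 1 (26.42 CPM, next 30.52), Cdkn2b in fatigued PBMT mouse 6 (1.086, next 0.6061) and Inhbb in sedentary PBMT mouse 4 (1.34, next 0.8414).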

How the results depend on the processing

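Of the values of single genes under the alternatives, 2270 kept their direction and their side of the threshold, 41 turned direction, 14 became called and 20 lost their call. Smad3 and Acvr2b stayed called in 32 of 32 alternatives in both fatigue comparisons: Smad3 from 0.47 to 0.60 in control and from 0.88 to 1.00 in PBMT mice, and Acvr2b from -0.76 to -0.51 and from -1.16 to -1.002. Tgfb1 (0.72 to 1.00), Smad7 (0.44 to 0.58) and Smad2 (-0.34 to -0.24) stayed called in 32 of 32 in PBMT mice. The PBMT effect on Smad3 ran from -0.25 to -0.14 in sedentary and from 0.18 to 0.28 in fatigued muscle, and the difference from 0.36 to 0.49 (adjusted p 0.276 to 0.9994).

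Genes called with PBMT in sedentary muscle numbered 4 with edgeR, 16 with no filter, 60 with DESeq2, 50 with limma, 12 with the length trend removed, 1 with all 24 mice in 1 model and 2 to 20 without 1 mouse. The replicate block gave 11, and 13 with the length trend removed as well. The split into higher and lower was 3 and 1 with edgeR, 22 and 38 with DESeq2 and 12 and 38 with limma. DESeq2 called 1 pathway gene there in place of 0. In fatigued muscle the 0 genes called became 2 with DESeq2, 1 with the replicate block and 1 with block and length. With limma the fatigue comparison in control mice went from 2 to 6 members, from 25 to 39 pathway genes and from 2809 to 4945 genes. The 1 gene called for the difference of the PBMT effect became 0 with the length trend removed, 0 with block and length, and 1 to 3 without 1 mouse. In each case the cause was not tested.

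Direction turned only for genes not called. For the PBMT effect in sedentary muscle these were Smad7 (0.0357 with limma, -0.12 to 0.0722 without 1 mouse) and Tgfbr2 (-0.0525 to 0.0103 without 1 mouse), and in fatigued muscle Smad2 (0.0224 with limma, -0.0565 to 0.0283 without 1 mouse). For fatigue they were Smad4 in control mice (-0.0264 with the length trend removed, -0.0204 with block and length, -0.03205 to 0.0587 without 1 mouse) and Tgfbr1 in PBMT mice (-0.0339, -0.0303 and -0.0349 to 0.0877). For the difference they were Mstn (0.00379 with limma, 0.03825 with the replicate block, -0.17 to 0.13 without 1 mouse), Tgfb2 (-0.10 to 0.0438 without 1 mouse) and Tgfbr1 (0.0357 with limma, -0.10 to 0.0232 without 1 mouse). The cause was not tested.

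The replicate block treats mice with the same number as pairs. Deviations from the group mean correlated at -0.0859 to 0.0843 between mice of the same number in the sedentary project (0 of 6 best with their own number) and at -0.103 to 0.342 in the fatigued project (3 of 6). Numbers were taken to pair mice only where every pair was over 0.1, which held in neither project, although some pairs of the fatigued project were over it. Limits are 6 mice per group, 1 project per exercise state, bulk tissue, run times per mouse that are not in the labels and a strand setting that is not given. Depth allowed at least 155 counts for each of the 10 genes, and 29970 identifiers had at least 1 read.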
